A study of Homo sapiens with 8 samples.

Results

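The genes described here encode the machinery that starts and carries translation: the eukaryotic initiation factors, the elongation factors with the enzymes that modify them, and the aminoacyl-tRNA synthetases. They were taken from the RefSeq annotation of GRCh38.p14 by symbol, as protein-coding genes whose names begin with EIF and a digit, begin with EEF and a digit, or end in ARS1 or ARS2. This gave 104 of 20037 protein-coding genes. Chromatin came from NCI-H69 cells, a human line established from a small cell lung cancer, collected 48 h after transfection with siRNA against CSNK2B or with non-targeting siRNA. CSNK2B encodes the regulatory beta subunit of casein kinase 2. Chromatin immunoprecipitation and sequencing (ChIP-seq) used antibodies against RBBP4, a histone-binding subunit of deacetylase, Polycomb and chromatin assembly complexes, and against the acetyltransferase P300. Each antibody had 1 library per arm, so no difference below has a replicate check. Each antibody also carried its own batch label, so a difference between the antibodies cannot be told apart from one between batches.

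Initiation assembles the small ribosomal subunit, the initiator tRNA and the capped mRNA. The eIF2 complex brings the initiator tRNA and is recharged by its exchange factor eIF2B, and stress kinases block that recharging by phosphorylating the eIF2 alpha subunit. The cap is read by eIF4E, which the 4E-binding proteins sequester. Elongation factors then deliver charged tRNAs and move the ribosome along, and a synthetase for each amino acid charges the tRNA, with mostly separate genes for the cytosol (ARS1) and the mitochondrion (ARS2). When eIF2 is phosphorylated, the transcription factor ATF4 is made and activates, among other genes, several cytosolic synthetases through composite C/EBP-ATF elements. In tumours driven by MYC-family factors, which bind the E-box CACGTG, genes of this machinery are known targets.

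A listed region was assigned to a gene when it overlapped the gene or the 3000 bp on either side of it. The RBBP4 table listed 106 regions at 71 of the 104 genes, out of 35154 regions, and had a region at 10344 of all 20037 genes. The P300 table listed 27 regions at 23 genes, out of 20496 regions, and had a region at 4723 of all genes. Regions of both antibodies were listed at 21 genes, of RBBP4 alone at 50 genes, of P300 alone at EIF4E3 and EIF5A2, and of neither at 31 genes. This split was not counted over all genes, so it is not read as particular to these genes. Genes with neither include EIF6, EIF5A, EIF2S2, EEF1A2, EEF1B2, CARS1, HARS1, IARS1, RARS1 and VARS1. All regions in the authors' deposited table have an unadjusted p below 0.05, so a gene without a region was not shown to lack a difference.

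Reads were recovered from the deposited RPKM, the read density per length and per total of reads. The total behind that scaling was inferred as 1207945 reads in the knockdown and 833181 in the control library for RBBP4, and for P300 as 946392 reads in the knockdown and 1092789 in the control library. These totals were taken as the reads in the regions the authors tested, not as all reads of a library. Folds are ratios of reads divided by these totals, with exact 95% binomial intervals, which cover only counting error. With 0 reads in a library, a floor of 3 reads stood in for it, and the fold is written as at least that value. Arms were known from column and region names alone, and a swap would turn every direction given. Region names give the arm whose peak was used, and its library was the higher of the pair at 35151 of 35154 RBBP4 and all 20496 P300 regions, so the direction of a region nearly restates its peak call. No region was listed at CSNK2B with either antibody, and these data hold no measure of its knockdown.

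Promoter windows, from 250 bases before to 50 bases after a start, were available from RefSeq for 83 of the genes. The windows below are examples that carry both an RBBP4 region that was higher after knockdown and a match to a motif named here. Capitals mark matches, on either strand, to the C/EBP-ATF element TGATGNAA, the ETS motif CCGGAAG, the E-box CACGTG and the NRF1 motif GCATGCGC. Each is written 5′ to 3′ on the strand of the gene, with positions on GRCh38.p14. The windows of GARS1 (glycyl-tRNA synthetase, chr7:30594628-30594927, plus strand) and NARS1 (asparaginyl-tRNA synthetase, chr18:57621787-57622086, minus strand) hold an ETS match followed by a C/EBP-ATF element. Those of MARS1 (methionyl-tRNA synthetase, chr12:57487818-57488117, plus strand) and TARS1 (threonyl-tRNA synthetase, chr5:33440715-33441014, plus strand) hold the C/EBP-ATF element close to the start. The EIF4E window (cap-binding protein, chr4:98929084-98929383, minus strand) holds 2 E-boxes. The EIF2S1 window (eIF2 alpha subunit, chr14:67360078-67360377, plus strand) holds 2 NRF1 matches on opposite strands.
GARS1: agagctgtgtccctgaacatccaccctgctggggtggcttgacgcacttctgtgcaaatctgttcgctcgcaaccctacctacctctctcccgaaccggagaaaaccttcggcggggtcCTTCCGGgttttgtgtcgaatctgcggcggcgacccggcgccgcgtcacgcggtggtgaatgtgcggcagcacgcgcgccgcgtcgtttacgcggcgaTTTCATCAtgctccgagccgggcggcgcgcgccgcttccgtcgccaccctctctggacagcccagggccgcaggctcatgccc
NARS1: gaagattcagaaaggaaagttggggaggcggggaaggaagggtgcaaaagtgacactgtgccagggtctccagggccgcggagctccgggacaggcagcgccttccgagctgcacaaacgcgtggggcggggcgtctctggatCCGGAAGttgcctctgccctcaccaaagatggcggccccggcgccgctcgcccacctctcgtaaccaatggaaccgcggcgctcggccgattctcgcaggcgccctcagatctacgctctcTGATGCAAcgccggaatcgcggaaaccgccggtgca
MARS1: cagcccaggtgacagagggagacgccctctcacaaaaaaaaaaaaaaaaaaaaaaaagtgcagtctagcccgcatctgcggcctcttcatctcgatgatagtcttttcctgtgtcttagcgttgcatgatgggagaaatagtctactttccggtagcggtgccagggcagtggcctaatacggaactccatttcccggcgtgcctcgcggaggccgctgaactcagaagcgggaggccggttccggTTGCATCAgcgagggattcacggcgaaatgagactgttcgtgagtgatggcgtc
TARS1: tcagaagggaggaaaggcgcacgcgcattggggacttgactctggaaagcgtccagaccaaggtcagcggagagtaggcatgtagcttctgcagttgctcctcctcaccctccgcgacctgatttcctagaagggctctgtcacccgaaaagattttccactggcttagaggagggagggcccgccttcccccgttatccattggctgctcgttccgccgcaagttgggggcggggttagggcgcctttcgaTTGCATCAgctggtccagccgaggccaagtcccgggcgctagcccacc
EIF4E: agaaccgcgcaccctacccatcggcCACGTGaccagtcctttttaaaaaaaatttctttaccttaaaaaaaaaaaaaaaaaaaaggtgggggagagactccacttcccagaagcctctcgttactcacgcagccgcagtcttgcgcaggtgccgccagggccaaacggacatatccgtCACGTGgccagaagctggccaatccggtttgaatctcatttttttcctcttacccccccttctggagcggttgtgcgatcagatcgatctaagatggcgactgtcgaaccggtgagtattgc
EIF2S1: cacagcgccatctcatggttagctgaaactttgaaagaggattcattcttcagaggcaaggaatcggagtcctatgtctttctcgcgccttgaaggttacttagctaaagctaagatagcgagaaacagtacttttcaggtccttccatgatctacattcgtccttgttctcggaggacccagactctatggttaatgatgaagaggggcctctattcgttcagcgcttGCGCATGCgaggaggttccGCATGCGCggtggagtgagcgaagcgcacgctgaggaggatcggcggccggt

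The question for RBBP4 was at which of these genes its occupancy differs once CSNK2B is knocked down. At the translation genes the listed signal was mostly higher: 93 regions were higher and 13 lower. At any protein-coding gene 15629 regions were higher and 4583 lower, so most were higher there too. A higher region with a log2 RPKM ratio of at least 1 (pseudocount 1) was found at 67 of 104 genes (64.4%), against 45.4% of all protein-coding genes. A lower one was found at 12 genes (11.5%), against 14.8%. A gene can be in both counts: 59 genes had only higher regions, EIF3F, LARS1 and NARS2 had only lower ones, and 9 had both. The same split over all genes is not given here.

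Higher regions lay at the ends of these genes. Of the 93, 79 (84.9%) were within 3000 bp of an end, against 7344 of 15629 (47%) higher regions at any protein-coding gene. By gene, 63 of 104 (60.6%) had such a region, against 35.1% of all genes, and 3 (2.88%) had a lower one, against 2.82%. The length of the genes was close to that of all genes, with a median of 23895 bp against 24115 bp. Over the promoter window the shares were 36 of 83 (43.4%) against 27.4% for higher regions, and 0 of 83 against 0.0757% for lower regions. Where a start was known, 49 of 65 higher regions near an end lay within 3000 bp of it (75.4%), against 88.3% for all genes, and the other 16 lay farther from a listed start. Another protein-coding gene was within reach of 38 of the 93 higher regions, against 2192 of 15629 at all genes, so part of the signal counted here may equally be assigned to a neighbour. Neighbours are not named below at every such region.

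The reads behind single regions were few. Higher regions held 8 to 74 reads after knockdown (median 20) against 0 to 25 in the control (median 3). Lower regions held 0 to 3 reads after knockdown (median 2) against 8 to 14 in the control (median 11). All 61 regions with at least 20 reads in both libraries together were higher, and all 13 lower regions had fewer. Over all listed RBBP4 regions the median of both libraries together was also smaller for lower regions, at 13 reads against 24. A lower region with at least 20 reads was found at 0 of these genes and at 2.78% of all genes. The interval of the fold excluded 1 for 68 of the 93 higher and for all 13 lower regions. All listed regions already had an unadjusted p below 0.05, so these intervals are not separate evidence of a difference. The larger knockdown total (1207945 reads, against 833181) also makes scaled folds of higher regions smaller than raw read ratios, and those of lower regions larger. By the adjusted p of the authors' deposited table, 74 higher and 4 lower regions passed 0.05, which put 59 genes (56.7%, against 38.3% of all genes) among the higher and 4 genes (3.85%, against 5.6%) among the lower.

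**Figure D1:**
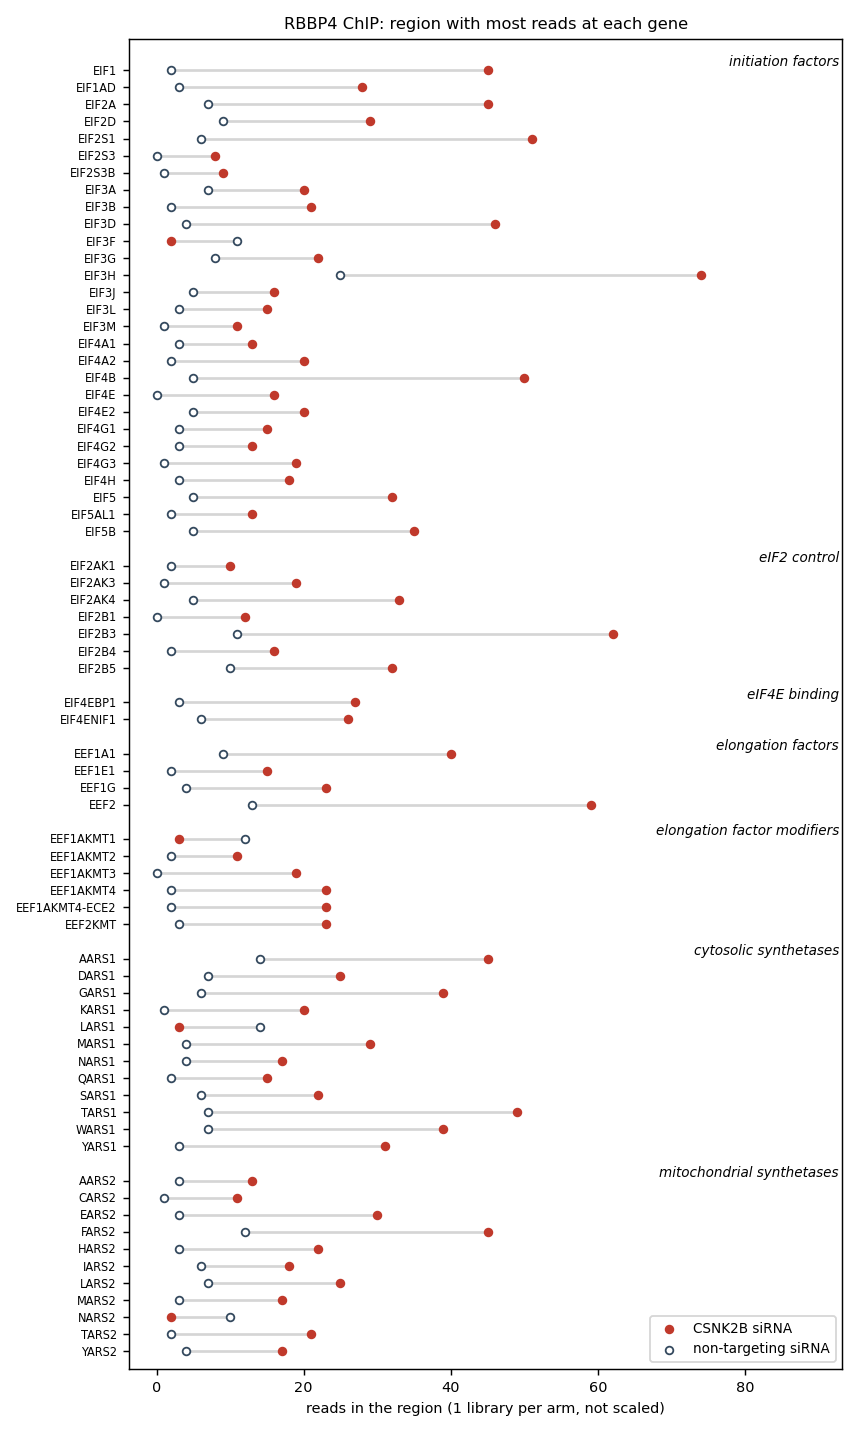
Reads in the RBBP4 library after CSNK2B siRNA (filled) and after non-targeting siRNA (open) at the region with most reads of 70 of the 71 genes with a listed region, by role. Reads are not scaled, and each arm is 1 library. At 66 genes the filled point lies to the right, and at EIF3F, EEF1AKMT1, LARS1 and NARS2 to the left. EEF1AKMT1 has a higher and a lower region with equal reads over both libraries, and the first by position, the lower one, is drawn.

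Of 43 initiation factor genes, 25 (58.1%) had a higher RBBP4 region near an end, against 35.1% of all genes, and 1 (2.33%), EIF3F, a lower one, against 2.82%. EIF1, which guards the choice of the start codon, had 45 reads after knockdown, against 2 in the control over its start (chr17:41687948-41689175). Its density was 15.5-fold higher (4.05 to 132). In the authors' deposited table its adjusted p was 3.39e-08. EIF4E, the cap-binding protein whose window is printed above, had 16 reads after knockdown, against 0 in the control over its start (chr4:98928840-98929367). That is at least 3.68-fold higher, with a lower interval limit of 2.66. EIF4B, a cofactor of the cap-bound helicase, had 50 knockdown and 5 control reads over its start (6.90-fold, 2.77 to 22.2), and a further region upstream had 27 knockdown and 7 control reads. The helicase genes EIF4A1 (13 after knockdown, 3 in the control) and EIF4A2 (20 knockdown and 2 control reads) and the scaffold genes EIF4G1 (15 knockdown and 3 control reads) and EIF4G2 (13 knockdown and 3 control reads) were also higher. Of these, the fold interval excluded 1 for EIF4A2 only. The EIF4A1 region also reaches SENP3, and the EIF4G1 region FAM131A.

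EIF2S1, the subunit that the stress kinases phosphorylate, had 51 reads after knockdown, against 6 in the control (chr14:67359654-67360349). Its density was 5.86-fold higher (2.52 to 16.7). That region also reaches the neighbours ATP6V1D and GPHN, so it is not tied to EIF2S1 alone. EIF2A, an alternative tRNA-delivery factor separate from eIF2, had 19 knockdown and 2 control reads over its start and 45 knockdown and 7 control reads upstream of it, where SERP1 is also in reach. Inside EIF2A, just over 3000 bp from its start, a lower region had 2 reads after knockdown, against 11 in the control. The gene thus held both directions within a short distance. EIF5, the GTPase activator of eIF2, had 32 knockdown and 5 control reads (4.41-fold, 1.71 to 14.5). EIF5B, which joins the subunits, had 35 knockdown and 5 control reads (4.83-fold, 1.88 to 15.8), where TXNDC9 is also in reach.

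The eIF3 complex scaffolds the small subunit, and of its genes only EIF3F had a lower RBBP4 region. EIF3D, the subunit that can itself bind some caps, had 46 reads after knockdown, against 4 in the control over its start (chr22:36528892-36529717). Its density was 7.93-fold higher (2.90 to 30.3). EIF3B had 21 knockdown and 2 control reads (7.24-fold, 1.77 to 63.7), where SNX8 is also in reach. EIF3M had 11 knockdown reads and 1 control read (7.59-fold, 1.10 to 327). At EIF3A (20 knockdown and 7 control reads), EIF3G (22 knockdown and 8 control reads at the end, 23 knockdown and 4 control reads at the other side), EIF3J (16 knockdown and 5 control reads) and EIF3L (15 knockdown and 3 control reads) the folds were lower, with intervals that overlap those of EIF3D and EIF3B. EIF3A stayed under a log2 ratio of 1, at 0.93, as did the EIF3G region with 22 knockdown and 8 control reads, at 0.88. At EIF3F the only region went the other way, with 2 reads after knockdown, against 11 in the control near its start (chr11:7988612-7988980). Its density was 7.97-fold lower (1.74 to 74.0). EIF3C, EIF3E, EIF3I and EIF3K had no listed region. EIF3C shares its sequence with the near-identical EIF3CL, where reads cannot be placed with certainty.

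EIF3H stood apart in level. It lies in a segment of the long arm of chromosome 8, the one that holds MYC, where both RBBP4 libraries were dense: the lower library of each region had a median of 72.1 reads per kb there, against 6.56 elsewhere. At the end of EIF3H the region had 74 reads after knockdown, against 25 in the control (2.04-fold, 1.282 to 3.35). A second region, inside the gene, had 48 knockdown and 15 control reads (2.21-fold, 1.215 to 4.24), and the third, also inside, had 25 knockdown and 1 control read (17.2-fold, 2.82 to 708). The control level at the first 2 was 36.1 and 37.4 reads per kb, and at the third 2.38, against a median of 7.33 for higher regions outside the segment. In the segment 188 of 198 listed regions were higher, so the difference at EIF3H was not particular to that gene.

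**Figure D2:**
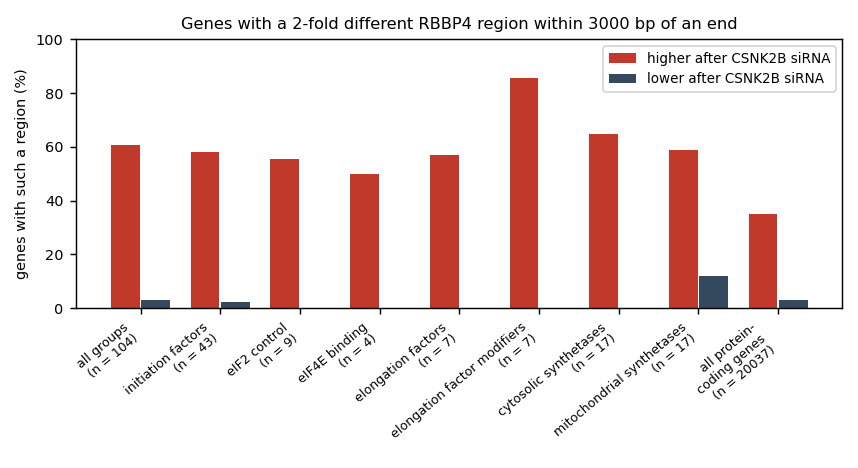
Share of genes with an RBBP4 region at least 2-fold higher or lower (RPKM plus 1) after CSNK2B siRNA and within 3000 bp of a gene end, by role group, with all 20037 protein-coding genes at the right. The share with a higher region is 60.6% over all 104 genes and 35.1% of all protein-coding genes. The share with a lower region is 2.88% and 2.82%.

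In the control of eIF2, 5 of 9 genes (55.6%) had a higher region near an end, against 35.1% of all genes, and 7 of 9 (77.8%) in or near the gene, against 45.4%. Of the exchange factor eIF2B, the genes of the alpha (EIF2B1), gamma (EIF2B3), delta (EIF2B4) and catalytic epsilon (EIF2B5) subunits had a higher region over the start, and EIF2B2 had none listed. EIF2B1 had 12 reads after knockdown, against 0 in the control (at least 2.76-fold, lower limit 1.92), in a region shared with GTF2H3. EIF2B5 had 32 knockdown and 10 control reads (2.21-fold, 1.06 to 5.03). EIF2B4 had 16 knockdown and 2 control reads (5.52-fold, 1.30 to 49.5), shared with SNX17. The most reads of the group were not at a start: a region inside EIF2B3, 38614 bp from its nearer end, had 62 reads after knockdown, against 11 in the control (3.89-fold, 2.03 to 8.19), while that over its start had 17 knockdown and 4 control reads. The fold interval of the EIF2B3 start region, 0.956 to 11.97, holds 1.

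Among the stress kinases, EIF2AK3 (PERK, the sensor of the endoplasmic reticulum) and EIF2AK4 (GCN2, the sensor of uncharged tRNA) each held both directions. EIF2AK3 had 19 reads after knockdown, against 1 in the control at its start end (13.1-fold, 2.08 to 545), and 1 knockdown and 8 control reads in a lower region 8311 bp inside. EIF2AK4 had 33 knockdown and 5 control reads at one place inside the gene (4.55-fold, 1.77 to 14.9) and 3 knockdown and 14 control reads at another (6.77-fold lower, 1.89 to 36.7). EIF2AK1, the haem-regulated kinase, had 10 knockdown and 2 control reads 3876 bp inside, where AIMP2 is also in reach. EIF2AK2, the kinase activated by double-stranded RNA, had no listed region.

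Both binding partners of eIF4E with a region were higher after knockdown. EIF4EBP1, the 4E-binding protein that mTOR phosphorylates, had 27 reads after knockdown, against 3 in the control 1085 bp from its end (6.21-fold, 1.91 to 32.0). EIF4ENIF1, which carries eIF4E into the nucleus and into P-bodies, had 4 higher regions, with 22, 11, 22 and 26 reads after knockdown against 1, 1, 8 and 6 in the control. The first of them lay over a promoter window (15.2-fold, 2.45 to 626), and the others also reach SFI1. EIF4EBP2 and EIF4EBP3 had no listed region.

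Of 7 elongation factor genes, 4 (57.1%) had higher regions, against 45.4% of all genes, and 0 a lower one, against 14.8%. For 7 genes these counts are near those shares. EEF2, the translocase, had 59 reads after knockdown, against 13 in the control over its start (chr19:3985253-3987143; 3.13-fold, 1.70 to 6.22) and 32 knockdown and 6 control reads upstream (3.68-fold, 1.52 to 10.8). EEF1A1, which delivers charged tRNAs, had 40 knockdown and 9 control reads at its far end (3.07-fold, 1.46 to 7.18) and 18 knockdown and 0 control reads beside its start (at least 4.14-fold, lower limit 3.03). EEF1A1 has many processed copies in the genome, and its reads are uncertain for that reason. EEF1G, a subunit of the exchange factor of eEF1A, had 23 knockdown and 4 control reads, and EEF1E1, which also sits in the multi-synthetase complex, had 15 knockdown and 2 control reads. EEF1A2, EEF1B2 and EEF1D, the others of this group, had no listed region.

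Of 7 genes of elongation factor modifiers, 6 (85.7%) had a higher region near an end, against 35.1% of all genes. EEF1AKMT3, a lysine methyltransferase of eEF1A, had 19 reads after knockdown, against 0 in the control 357 bp from its end (at least 4.37-fold, lower limit 3.22), where METTL1 is also in reach. EEF1AKMT4, of the same kind, had 23 knockdown and 2 control reads over its start (7.93-fold, 1.96 to 69.4). That region and a second one beside it also belong to the read-through gene EEF1AKMT4-ECE2, which shares the start. Each is 1 region in the counts of regions, and both genes are in the counts of genes. EEF2KMT, which methylates eEF2, had 23 knockdown and 3 control reads (5.29-fold, 1.60 to 27.5) and 13 knockdown and 1 control read. EEF1AKMT1 and EEF1AKMT2 held both directions, with lower regions inside the gene of 3 reads after knockdown against 12 in the control, and of 1 against 11. EEF2K, the kinase that inhibits eEF2, had no listed region.

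Of 17 cytosolic synthetase genes, 11 (64.7%) had a higher RBBP4 region near an end, against 35.1% of all genes, and 0 a lower one there, against 2.82%. TARS1 had 49 reads after knockdown, against 7 in the control over its start (chr5:33440315-33441222). Its density was 4.83-fold higher (2.18 to 12.6). GARS1, which also serves mitochondria, had 39 knockdown and 6 control reads over its start (chr7:30594679-30595122; 4.48-fold, 1.88 to 13.0). KARS1, likewise of both compartments, had 20 knockdown and 1 control read over its start (13.8-fold, 2.21 to 572), in a region that reaches TERF2IP, and 15 knockdown and 3 control reads inside. YARS1, the tyrosyl enzyme, had 31 knockdown and 3 control reads (7.13-fold, 2.22 to 36.4), in a region that reaches NHSL3. WARS1, the tryptophanyl enzyme, had 39 knockdown and 7 control reads at its start (3.84-fold, 1.70 to 10.2), where WDR25 is also in reach. Inside WARS1 a region had 17 knockdown and 2 control reads. At each of these synthetase genes the region at a gene end had more reads after knockdown, and its interval excluded 1.

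MARS1 and AARS1 show regions at the end away from the start. MARS1 had 12 reads after knockdown, against 1 in the control at its start (8.28-fold, 1.22 to 354), where ARHGAP9 is also in reach. At its other end it had 29 knockdown and 4 control reads (5.00-fold, 1.76 to 19.6) and 22 knockdown and 7 control reads, in regions that also belong to DDIT3, the stress factor CHOP. AARS1 had 45 knockdown and 14 control reads (2.22-fold, 1.195 to 4.37) at its far end, shared with EXOSC6, and none over its start. NARS1 had 17 knockdown and 4 control reads over its start (2.93-fold), with an interval of 0.956 to 11.97 that holds 1. LARS1, the leucyl enzyme that also senses leucine for mTOR, had a lower region only, 22061 bp inside the gene, with 3 reads after knockdown, against 14 in the control (6.77-fold lower, 1.89 to 36.7). No region was listed at CARS1, HARS1, IARS1, RARS1 or VARS1.

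Of 17 mitochondrial synthetase genes, 10 (58.8%) had a higher region near an end, against 35.1% of all genes, and 2 (11.8%), CARS2 and TARS2, a lower one, against 2.82%. EARS2, the glutamyl enzyme, had 30 knockdown and 3 control reads over its start (6.90-fold, 2.15 to 35.3), shared with UBFD1. Inside the gene, 1944 bp from its far end, it had 11 knockdown and 2 control reads (3.79-fold, 0.828 to 35.2). There the interval holds 1 and GGA2 is also in reach. TARS2 had 21 knockdown and 2 control reads over its start (7.24-fold, 1.77 to 63.7). Near its far end TARS2 had 2 knockdown and 10 control reads (7.25-fold lower, 1.54 to 68.0), where ECM1 is also in reach. HARS2 had 22 knockdown and 3 control reads (5.06-fold, 1.52 to 26.4) at its far end, shared with ZMAT2.

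CARS2 and FARS2 held regions of both directions. CARS2 had 0 reads after knockdown, against 8 in the control 887 bp from its far end (at least 3.87-fold lower, lower limit 2.47), beside NAXD, and 11 knockdown and 1 control read at its other end, beside ING1. FARS2, the phenylalanyl enzyme and one of the long genes here, had 6 regions. Its 4 higher regions had 20, 45, 10 and 20 reads after knockdown against 5, 12, 1 and 3 in the control. Its 2 lower regions, more than 100000 bp from either end, had 1 read and 3 reads after knockdown, against 11 reads and 14 reads in the control. NARS2 had a lower region only, deep inside the gene, with 2 reads after knockdown, against 10 in the control (7.25-fold lower, 1.54 to 68.0).

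The lower regions were away from gene ends more often than the higher ones: 10 of 13 lay beyond 3000 bp of an end, against 14 of 93 higher ones. For all protein-coding genes the shares near an end were 11.5% of lower and 47% of higher regions, so that contrast is also found in the whole table. EIF4G3, a scaffold gene, held both directions away from its ends: inside it a lower region had 2 reads after knockdown, against 14 in the control (10.1-fold lower, 2.33 to 92.0), and 2 higher regions, also inside, had 19 knockdown and 1 control read, and 15 knockdown and 4 control reads.

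**Figure D3:**
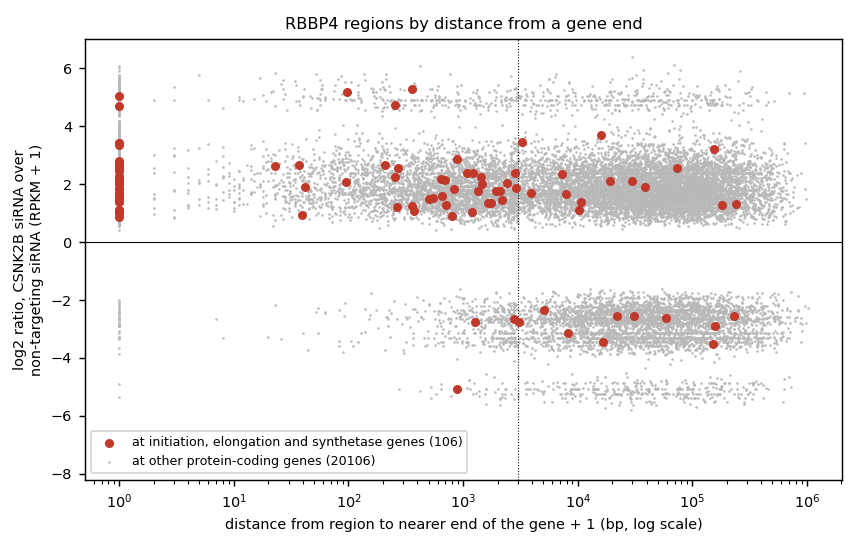
Log2 ratio of RPKM plus 1, CSNK2B siRNA over non-targeting siRNA, of each listed RBBP4 region against its distance from the nearer end of the gene (log scale, with the dotted line at 3000 bp). Red points are the 106 regions at the translation genes and grey points those at other protein-coding genes. Of the red points above 0, 79 of 93 lie at or left of the line, and of those below 0, 3 of 13.

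By the region with most reads per gene, the median log2 RPKM ratio was 2.05 over the 71 genes with a region, against 1.81 over the 10344 protein-coding genes with one. Group medians were 2.06 for initiation factors (28 genes), 2.11 for the control of eIF2 (7), 1.93 for eIF4E binding (2), 1.72 for elongation factors (4), 2.51 for elongation factor modifiers (6), 1.98 for cytosolic synthetases (12) and 1.66 for mitochondrial synthetases (12). These are medians of listed regions only. Single genes ran from -2.54 to 3.36 in the cytosolic synthetases and from 1.51 to 2.16 in the elongation factors, and differences between groups were not tested. The log2 fold change in the authors' deposited table gave 2.69 over the 71 genes against 2.46. Its scale lay above the RPKM ratio, which minus the authors' value had a median of -0.56.

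P300 was listed at 23 of the 104 genes, against 4723 of all 20037. After knockdown 17 of its regions were lower and 10 higher, against 5969 lower and 3186 higher at any protein-coding gene. A P300 region with a log2 ratio of at least 1 was found at 9 genes when higher (8.65%, against 11.5% of all genes) and at 15 when lower (14.4%, against 17.5%), so neither share exceeded the background. Near a gene end 1 gene, GARS1, had a higher region (0.962%, against 2.39%), and 8 had a lower one (7.69%, against 3.58%). The lowest adjusted p for P300 in the authors' deposited table was 0.26, so no region of the whole table passed 0.05, while all 27 listed here had an unadjusted p below 0.05. Fold intervals excluded 1 for all 10 higher and 8 of 17 lower regions, which is not separate evidence in regions listed by that p. For P300 the control total was the larger one (1092789 reads, against 946392). Scaling thus makes the folds of higher regions larger than raw read ratios, and those of lower regions smaller. The authors' log2 fold change for P300 lay below the RPKM ratio, which minus the authors' value had a median of 0.42. At GARS1, for instance, the authors' value was 1.55 and the log2 RPKM ratio 1.95. Which P300 intervals exclude 1 therefore depends on the scaling used.

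The 8 genes with a lower P300 region near an end are EIF3H, EIF4H, EIF5A2, EIF5B, KARS1, TARS1, EARS2 and IARS2. IARS2, the mitochondrial isoleucyl enzyme, had 0 reads after knockdown, against 11 in the control near its far end (at least 3.18-fold lower, lower limit 2.17), beside RAB3GAP2. EARS2 had 2 knockdown and 13 control reads (5.63-fold lower, 1.27 to 51.4), and EIF5A2, a paralogue of the hypusinated factor eIF5A, had 1 knockdown and 10 control reads (8.66-fold lower, 1.23 to 376). At the other 5 the interval held 1: EIF3H and EIF4H each had 6 reads after knockdown, against 15 in the control, EIF5B 2 knockdown and 9 control reads, KARS1 7 knockdown and 17 control reads, and TARS1 3 knockdown and 11 control reads. EIF3M, with 8 knockdown and 18 control reads, stayed under the threshold at a log2 ratio of -0.94.

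GARS1 was the only gene with a higher P300 region near an annotated end. Its region (chr7:30594905-30595243), 27 bp from the start of the printed window's transcript, had 21 reads after knockdown, against 6 in the control. Its density was 4.04-fold higher (1.58 to 12.2). FARS2 had 24 knockdown and 5 control reads over a promoter window that lies inside its annotated span and faces LYRM4 (5.54-fold, 2.07 to 18.6). These are the 2 genes of 83 with a higher P300 region over a promoter window (2.41%, against 0.36% of all genes).

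The remaining P300 regions lay inside genes. EIF4E2, a cap-binding relative of eIF4E, had 18 reads after knockdown, against 4 in the control (5.20-fold, 1.71 to 21.1). EIF4G3 and FARS2 each had a region with 10 knockdown and 1 control read, EIF2AK4, EIF2B3 and NARS2 each 9 knockdown and 1 control read, and KARS1 and EEF1AKMT2 each 11 knockdown and 2 control reads. Lower regions inside genes were listed at EIF2AK3, EIF4ENIF1, EIF4E3, WARS1, LARS1, LARS2, IARS2 and FARS2. They held 0 reads after knockdown at EIF4ENIF1 (at least 2.31-fold lower, lower limit 1.48) and LARS2 (at least 2.02-fold lower, lower limit 1.25), against 8 reads and 7 reads in the control. At EIF2AK3 and IARS2 they held 1 knockdown and 10 control reads. WARS1 had 5 knockdown and 14 control reads, LARS1 3 knockdown and 11 control reads, EIF4E3 6 knockdown and 17 control reads, and FARS2 2 knockdown and 11 control reads. None of the 7 elongation factor genes had a P300 region, against 4723 of all 20037 genes with one. With only 7 genes, this is not read as a trait of the group.

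**Figure D4:**
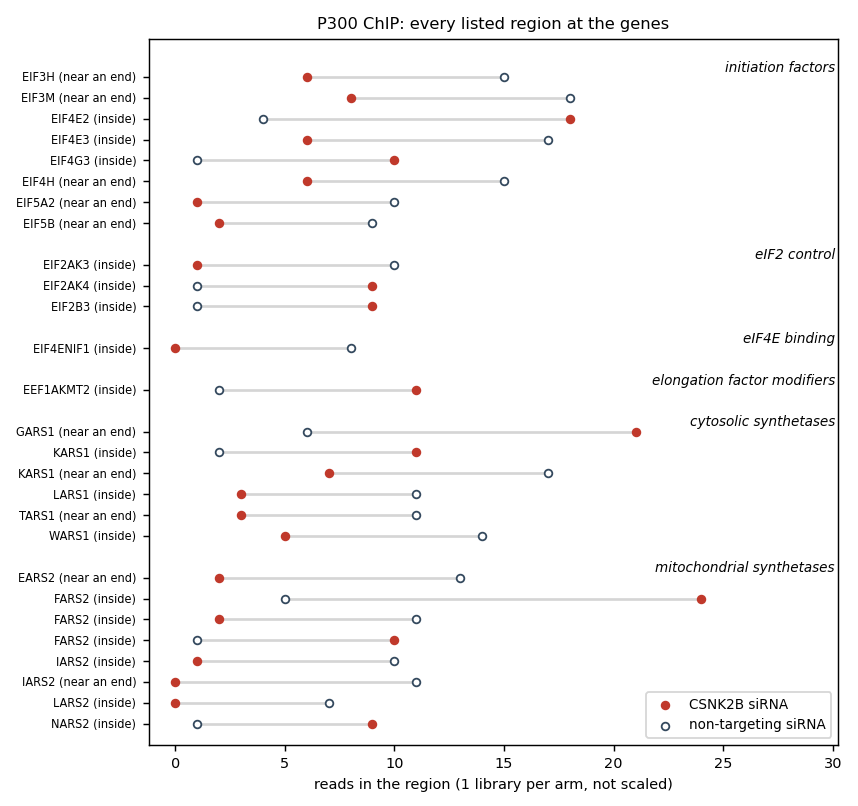
Reads in the P300 library after CSNK2B siRNA (filled) and after non-targeting siRNA (open) at each of the 27 listed regions of the translation genes, by role and place. Reads are not scaled, and each arm is 1 library. GARS1, with 21 knockdown and 6 control reads, is the only region near an end whose filled point lies to the right.

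Regions of both antibodies overlapped at 6 of the genes. At GARS1 both signals were higher after knockdown, with 39 knockdown and 6 control reads for RBBP4 and 21 knockdown and 6 control reads for P300. At FARS2 too both were higher, with 20 knockdown and 5 control reads for RBBP4 and 24 knockdown and 5 control reads for P300. At EIF3M, EIF4H, EIF3H and EARS2 RBBP4 was higher and P300 lower. EIF4H, for instance, had 18 knockdown and 3 control reads for RBBP4 and 6 knockdown and 15 control reads for P300, and EIF3M had 11 knockdown and 1 control read for RBBP4 and 8 knockdown and 18 control reads for P300. EIF3H had 74 knockdown and 25 control reads for RBBP4 and 6 knockdown and 15 control reads for P300. EARS2 had 11 knockdown and 2 control reads for RBBP4 and 2 knockdown and 13 control reads for P300. At all protein-coding genes 204 such overlaps were found, of which 76 were higher in both and 84 higher in RBBP4 and lower in P300.

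The letters of the promoter windows differed between groups. The C/EBP-ATF element was found in 7 of 13 cytosolic synthetase genes with a window (AARS1, CARS1, GARS1, IARS1, MARS1, NARS1 and TARS1), in 1 of 14 mitochondrial ones, YARS2, and in 1 of 36 initiation factors, EIF4E3. Over all 83 genes the share was 10.8%, against 3.6% of all 15842 genes with a window. An RBBP4 region that was higher after knockdown overlapped the window of GARS1, MARS1, NARS1 and TARS1, and not those of AARS1, CARS1 and IARS1, so the element and a listed region did not always go together. At MARS1 the region ended 36 bp before the start and did not reach the element. In GARS1 the element begins at base 218 of the window, in MARS1 at 247, in TARS1 at 253 and in NARS1 at 265, which places it close to the start.

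The ETS motif was found in 31 of 83 genes (37.3%), against 16.5% of all genes, with 9 of 13 cytosolic and 7 of 14 mitochondrial synthetases. The E-box was found in 19 (22.9%), against 10.9%, among them EIF4E, EIF4B, EIF4G1 and EIF4H. The NRF1 motif was found in 4 (4.82%, against 4.89%), namely EIF2S1, EIF2B5, MARS2 and YARS2, all with a higher RBBP4 region over the window. Such a region lay over a window of 36 of the 83 genes (43.4%), against 27.4% of all genes. At YARS2 its fold interval, 0.956 to 11.97, holds 1. A link between the motif and these regions was not tested. The TATA motif TATAAA was found in 5 (6.02%, against 12.4%). Median GC content was 63.3% in the genes' windows and 62.3% in all. None of the motifs contains another. A match is only a run of letters, and binding of these factors was not measured.

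**Figure D5:**
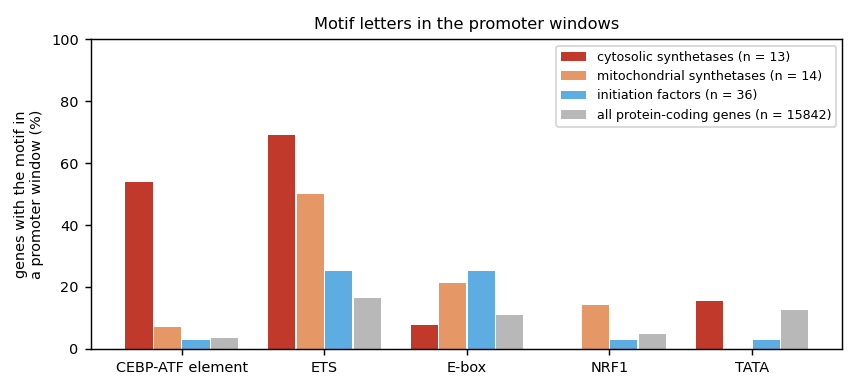
Share of genes with each motif in a promoter window of 300 bases, on either strand, for cytosolic synthetases, mitochondrial synthetases, initiation factors and all protein-coding genes with a window. The C/EBP-ATF element is in 53.8% of the cytosolic synthetases, 7.14% of the mitochondrial ones, 2.78% of initiation factors and 3.6% of all genes.

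Other genes of the pathway, outside the symbol rule, were read in the same way. Of 7 genes of the integrated stress response, the programme that eIF2 phosphorylation starts, all 7 had a higher RBBP4 region and 6 had it near an annotated end, against 45.4% and 35.1% of all genes. PPP1R15A, a phosphatase subunit that reverses eIF2 phosphorylation, had 35 reads after knockdown, against 5 in the control (4.83-fold, 1.88 to 15.8), and ATF4 had 31 knockdown and 6 control reads (3.56-fold, 1.46 to 10.4). DDIT3 had 29 knockdown and 4 control reads in the region it shares with MARS1. Of 6 further synthetase and scaffold genes 5 had a higher region: AIMP2, a scaffold of the multi-synthetase complex, had 82 knockdown and 6 control reads inside the gene (9.43-fold, 4.15 to 26.4), FARSB had 55 knockdown and 13 control reads (2.92-fold, 1.57 to 5.82), and EPRS1 had 42 knockdown and 6 control reads over its start (4.83-fold, 2.04 to 13.9).

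In the other lists the counts were near the 45.4% of all genes. Higher RBBP4 regions were listed at 2 of 4 genes of termination and recycling, with 35 reads after knockdown, against 6 in the control at GSPT1, the release factor eRF3. They were listed at 4 of 7 helpers of initiation, with 36 knockdown and 5 control reads at DHPS, which starts the hypusination of eIF5A. Of 8 mitochondrial translation factors, 4 had a higher region, and MTIF2, the mitochondrial initiation factor, also had a lower one inside the gene, with 9 knockdown and 26 control reads (interval of the fold 0.0984 to 0.526). None of these 32 genes had a listed P300 region, against 4723 of all 20037 genes with one.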

How the data were processed

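NCI-H69 ChIP-seq libraries of RBBP4 and P300 were compared, 1 per arm and antibody, and the 4 input libraries were not used here. Per the submitters' processing notes, the build was GRCh38 and the tools included DiffBind 3.4.11, MACS2 2.2.7.1, ChIPseeker 1.28.3, Bowtie2 2.4.5 and Trim Galore 0.6.7, with no statement of which step used which. Deposited by the authors were RPKM values per listed region and library. The log2 fold change, mean log2 CPM, p-value and adjusted p-value of each region are also the authors' values, per the file headers. RPKM times width gave whole reads, within 0.01, for 98.3% of RBBP4 and 99.4% of P300 regions. For 551 and 118 others, reads were looked up by the deposited log2 values, 3 RBBP4 regions at KARS1, EEF1G and EEF2 among them, and 45 and 13 were not recovered. Regions counted as called had an absolute log2((knockdown RPKM + 1)/(control RPKM + 1)) of at least 1. This understates low regions. RefSeq gave gene spans of GRCh38.p14, without exons. The members, gene lists and rules were chosen with earlier results of these data known. Named genes were those with a P300 region, a lower RBBP4 region, regions of both antibodies, or per role the highest ratios (regions with at least 20 reads) and most reads, and other genes named in the report were chosen after their values were seen. The values of 1 gene are in the counts and are not reported here singly. Read recovery was tested on simulated data. Python 3.11.15, pandas 2.3.3 and scipy 1.17.1 were used.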

Additional observations from a re-analysis of the deposited data

How the results depend on the processing

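With 1 library per arm no replicate could be left out, and at these depths most single regions hold too few reads to bound a fold closely. No paired analysis was possible because each arm and antibody had 1 library. Median log2 ratios kept their sign under every alternative, from 1.87 to 2.69 for RBBP4 and from -1.54 to -1.07 for P300. Genes with a higher RBBP4 region numbered 67 (45.4% of all genes had one), and 42 at a log2 ratio of at least 2 (28% of all genes) or 43 with regions of 1 gene only (31.8%). Near an end they numbered 63 (35.1%), and 37 (19.6%) or 36 (20.6%) under the same changes. The 12 genes with a lower RBBP4 region (14.8% of all genes) became 0 with at least 20 reads (2.78%). By the authors' adjusted p they became 4 (5.6%). The 3 near an end (2.82%) became 0 with at least 20 reads (0.409%) and 1 by adjusted p (0.908%). With 1000 bp (0.983%) or with regions of 1 gene only (2.12%) they also became 1. For P300, the 9 genes with a higher region (11.5% of all genes) became 3 with at least 20 reads (1.38%). The 15 with a lower one (17.5%) became 4 with at least 20 reads (1.76%) and 7 at a log2 ratio of at least 2 (11.1%). Near an end the 1 higher gene (2.39%) became 0 at a log2 ratio of at least 2 (2.12%). The 8 lower genes (3.58%) became 5 with a pseudocount of 5 (3.38%). They became 3 with at least 20 reads (0.434%), at a log2 ratio of at least 2 (1.8%) or regions of 1 gene only (2.52%). By adjusted p each of these P300 counts became 0, as over all genes (0%). Stricter thresholds remove regions by construction, and other causes were not tested. Leaving out genes with near-identical copies and the read-through gene, an alternative chosen after seeing the data, gave 62 and 58 for RBBP4 higher, and the other counts were as before.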

Other observations

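Among genes of the pathway outside the symbol rule, both subunits of the cytosolic phenylalanyl-tRNA synthetase held higher RBBP4 regions. These were picked after their values were seen. FARSA had 38 reads after knockdown, against 0 in the control, at least 8.74-fold higher with a lower interval limit of 6.77, in a region 2959 bp from its far end that also reaches SYCE2. Along FARSB 8 regions were listed, all higher, of which the one over its start had 34 reads after knockdown, against 5 in the control (4.69-fold, 1.82 to 15.4). DHPS had 5 higher regions, one of them with 13 reads after knockdown, against 0 in the control, in reach of WDR83.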
